A study of Mus musculus with 6 samples.

Results

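The 30 genes described here act in ribosome biogenesis and in the nucleolus, and were picked by gene name for that role. All 30 were found among the 47643 genes of each table, and all 30 had enough reads to be tested. They were read in regulatory T cells, the CD4+ lymphocytes that carry FOXP3 and restrain immune responses, sorted from mouse bone marrow as CD4+ FOXP3-GFP+ cells. The myeloma group is 3 libraries from Vk*MYC-injected mice, named MM3, MM4 and MM5, and the control group is 3 libraries from control mice, named CT1, CT3 and CT5. Both groups were sorted on the same FOXP3-GFP gate. Vk*MYC tumours are plasma cell cancers driven by a MYC transgene under immunoglobulin kappa regulatory elements, and the transgene sits in the injected tumour cells, not in the T cells of the host. The sources used here do not give strain, age, time after injection or what the control mice received.

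Ribosomes are built in the nucleolus. RNA polymerase I copies the ribosomal DNA, small nucleolar ribonucleoproteins (snoRNPs) modify the transcript, processing factors cut it and fold it into the small and large subunits, and Ran-dependent transport carries these to the cytoplasm. The transcription factor MYC is known to raise many genes of this pathway, and T cells raise it when they are activated and divide.

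Most of these genes did not differ detectably between the myeloma and control cells. Ran and Ranbp1, a nuclear transport GTPase and its binding partner, rose, and Nop56, a scaffold protein of the box C/D snoRNPs, fell. The remaining 27 genes did not pass edgeR's quasi-likelihood test at an adjusted p of 0.05. Of the 13235 genes tested, 11.0% were called, with 6.33% (838) higher and 4.69% (621) lower, so the 3 calls among 30 are a share near the background. With library sizes alone in place of TMM scaling the split over all genes was 633 higher and 1004 lower. The log2 fold changes, myeloma minus control, ran from -0.36 for Nop56 to 0.49 for Nhp2. Their median was 0.06, against 0.02 over all genes tested, and 18 were above 0 and 12 below. At an unadjusted p under 0.05 there were 8 higher and 2 lower genes, and 27.9% of all genes passed that threshold.

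The size of any difference was bounded for every gene of the group. The 95% intervals of the log2 fold changes lay between -0.60, the lower bound for Utp20, and 0.86, the upper bound for Nop16. All 30 intervals thus lay within 1 log2 unit of 0 in either direction. Smaller changes are not excluded by them, and the genes that did not pass are not shown to be equal between the groups.

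**Figure D1:**
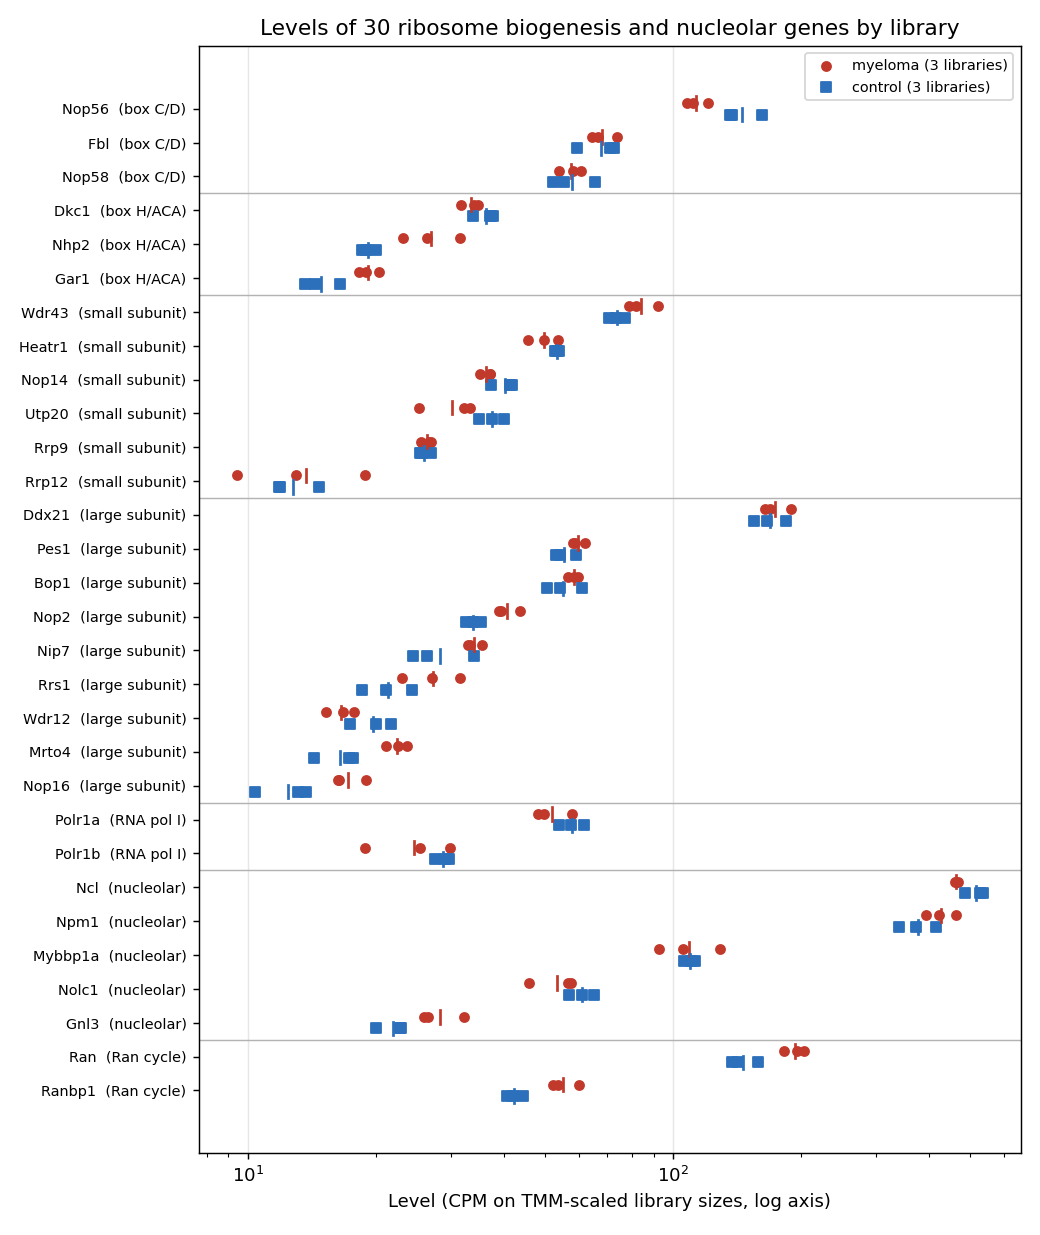
Level of each of the 30 genes in CPM (counts scaled to library size, log axis), 1 point per library, with myeloma libraries as red circles above control libraries as blue squares and short vertical lines for the group means. Genes are grouped by role. The myeloma and control libraries separate for 13 genes, Ran, Ranbp1 and Nop56 among them, and overlap for 17.

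The 3 myeloma and 3 control libraries did not overlap for 13 of the 30 genes (43.3%), 9 with myeloma higher and 4 with myeloma lower. Among all genes tested the groups did not overlap for 33.3%, with myeloma higher in 17.3% and lower in 16.0%. The summed level of the 30 genes, in counts scaled to library size (CPM), did overlap, at 2354, 2434 and 2453 CPM in MM3, MM4 and MM5 and 2317, 2480 and 2270 CPM in CT1, CT3 and CT5. Within a group, the coefficient of variation of single genes had a median of 7.46% in myeloma libraries and 7.08% in control libraries. It reached 34.3% in myeloma and 18.1% in control libraries, so most genes of the group were steady from library to library.

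Ran, the small GTPase whose gradient across the nuclear envelope drives import and export, including export of ribosomal subunits, had 182.7, 202.6 and 195.7 CPM in myeloma libraries. Control libraries had 142.2, 157.9 and 137.4 CPM. Every myeloma library was above every control library, and the log2 fold change was 0.41 (SE 0.09, adjusted p = 0.0204), or 1.33-fold. Ranbp1, which binds the GTP form of Ran and helps the hydrolysis of GTP, had 53.5, 52.1 and 60.0 CPM in myeloma libraries, against 41.9, 44.4 and 40.7 CPM in control libraries. These groups did not overlap either (log2 fold change 0.38, SE 0.10, adjusted p = 0.0361). Ran lies at chr5:129020069-129024323 (plus strand) and Ranbp1 at chr16:18239784-18248732 (minus strand), both in GRCm38.

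Nop56 (chr2:130274430-130279313, plus strand) had 111.3, 107.9 and 120.5 CPM in myeloma libraries. In control libraries it had 135.8, 161.9 and 137.9 CPM. All 3 myeloma libraries were below all 3 control libraries (log2 fold change -0.36, SE 0.10, adjusted p = 0.0441), and the fitted ratio was 0.78. Its introns host snoRNAs, and its exons overlap annotated snoRNA genes on the same strand over 328 of 4099 exonic bases.

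Because these 3 genes carry the only calls of the group, their RefSeq promoter windows are shown on GRCm38.p6, from 250 bases before to 50 bases after the annotated start, 5′ to 3′ along the gene's strand. Capitals mark CACGTG, the E-box letters known to be bound by MYC and MAX, which read the same on both strands.
Ran, chr5:129019906-129020205 (plus): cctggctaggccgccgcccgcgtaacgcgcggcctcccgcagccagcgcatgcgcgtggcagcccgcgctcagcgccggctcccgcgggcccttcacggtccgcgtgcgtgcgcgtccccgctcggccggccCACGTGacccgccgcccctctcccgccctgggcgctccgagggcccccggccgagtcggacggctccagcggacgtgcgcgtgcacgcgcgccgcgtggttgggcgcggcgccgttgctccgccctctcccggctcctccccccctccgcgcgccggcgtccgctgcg
Ranbp1, chr16:18248645-18248944 (minus): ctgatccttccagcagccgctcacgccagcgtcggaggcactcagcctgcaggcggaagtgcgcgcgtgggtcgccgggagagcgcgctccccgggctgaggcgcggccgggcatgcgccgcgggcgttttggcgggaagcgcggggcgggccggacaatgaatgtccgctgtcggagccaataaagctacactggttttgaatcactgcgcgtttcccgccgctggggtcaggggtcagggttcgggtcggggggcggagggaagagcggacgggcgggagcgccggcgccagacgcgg
Nop56, chr2:130274162-130274461 (plus): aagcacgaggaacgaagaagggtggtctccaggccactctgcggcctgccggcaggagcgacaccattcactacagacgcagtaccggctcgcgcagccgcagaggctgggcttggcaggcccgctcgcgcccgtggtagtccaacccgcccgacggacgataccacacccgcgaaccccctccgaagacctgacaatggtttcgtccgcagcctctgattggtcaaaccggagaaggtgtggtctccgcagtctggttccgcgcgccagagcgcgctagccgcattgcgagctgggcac

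The Ran window holds 1 such hexamer, which starts at base 133 of the window, and the Ranbp1 and Nop56 windows hold none. Of the 25 member genes matched in the promoter table, 6 (24.0%) had the hexamer in a window of this length, against 11.8% of the 9554 tested genes matched and 8.09% of all 27025 genes in the table. The median GC content of the windows was 59.7% for the members and 60.7% for tested genes. The 6 genes were Mybbp1a, Nop2, Pes1, Ran, Utp20 and Wdr43, whose log2 fold changes lay on both sides of 0. Only Ran among them was called.

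The 3 calls were close to the threshold, and each was lost under some setting. Ran did not pass with MM4 left out (adjusted p = 0.0782 by edgeR), nor with CT1 (0.0556) or CT5 (0.0745) left out. Ranbp1 did not pass whichever library was left out, and its adjusted p ran between 0.0706 (MM4 left out) and 0.117 (CT5 left out). For Nop56 the call went with MM3 (0.110), MM4 (0.138), CT3 (0.163) or CT5 (0.0717) left out. These edgeR fits have fewer samples, so a lost call does not by itself show that it rested on the library left out. With the per-library effective length of each gene as an offset, adjusted p was 0.145 for Ran, 0.0869 for Ranbp1 and 0.220 for Nop56, while their log2 fold changes were 0.41, 0.36 and -0.34. With library sizes alone in place of TMM scaling Ranbp1 had 0.0604. DESeq2 and limma-voom called all 3 genes in the same directions.

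**Figure D2:**
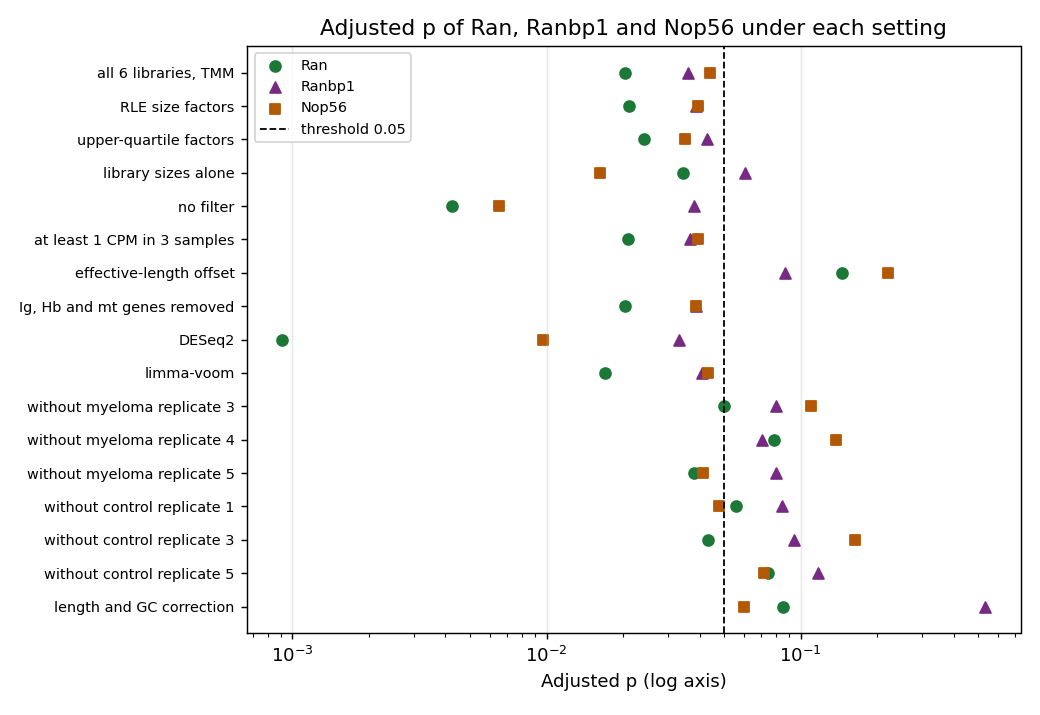
Adjusted p (log axis) of Ran (circles), Ranbp1 (triangles) and Nop56 (squares) in the edgeR fit of all 6 libraries and under 16 other settings, with the threshold of 0.05 as a dashed line. Points to the left of the line passed, and all 3 genes lie to its right under 4 of the settings shown, namely with MM4 left out, with CT5 left out, with the length and GC correction and with the effective-length offset. The fit with replicate numbers as a block is not drawn, and none of the 3 genes passed in it.

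Fold changes of these genes were lower the longer the longest annotated transcript of the gene. That transcript need not be the one the cells express. Nop58, with a longest transcript of 9507 bases, had effective lengths of 906.8 to 1128.5 bases by library. Nop56, with 3627 bases, had effective lengths of 935.1 to 1176.2 bases, and both genes count as longer below. Over the 30 genes, Spearman's rho between the length of the longest annotated transcript and the log2 fold change was -0.76, given as a description of genes that share the same 6 libraries. Over the 13198 tested genes with a known length it was -0.33. Among the 15 shorter genes (1042 to 2804 bases) 13 had a log2 fold change above 0 and the median was 0.35. Among the 15 longer genes (2923 to 10012 bases) 5 were above 0 and the median was -0.10. All tested genes were split at the members' median length in the same way: the medians were 0.17 for 5716 shorter genes and -0.08 for 7482 longer ones, with 549 higher and 84 lower calls among the shorter and 287 higher and 537 lower among the longer. When length and GC content were corrected for, rho over the 30 genes was -0.33. In that fit no gene of the group was called, with adjusted p of 0.0851 for Ran, 0.533 for Ranbp1 and 0.0600 for Nop56. The log2 fold change of Ran was then 0.29, that of Ranbp1 0.12 and that of Nop56 -0.35. Such a correction also takes out any biological difference that runs with length.

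**Figure D3:**
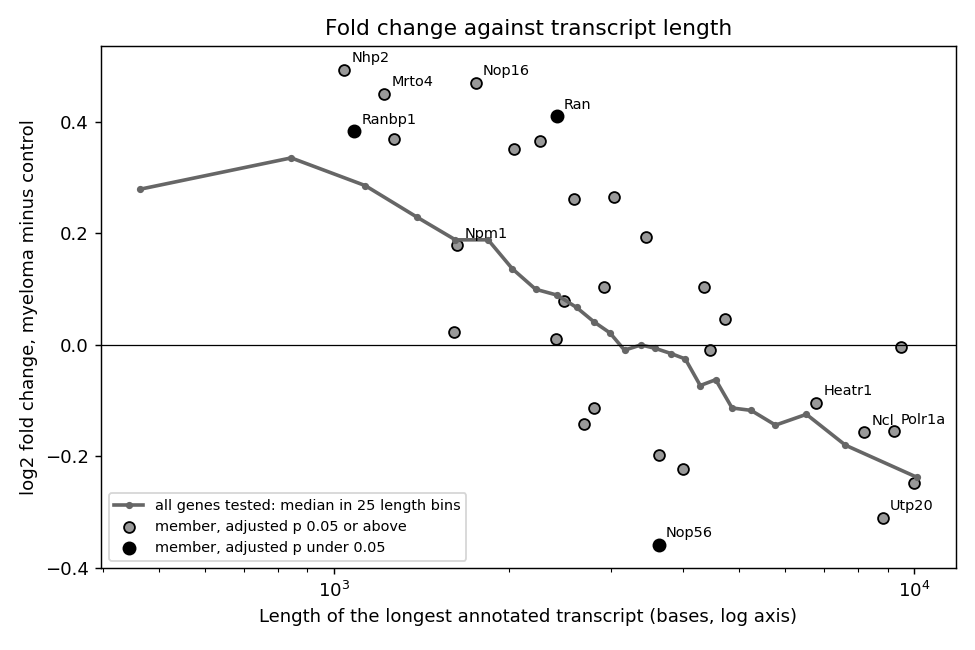
Log2 fold change, myeloma minus control, against the length of the longest annotated transcript in bases (log axis). Filled black points are the 3 called genes, grey points the other 27, and the line joins the medians of all tested genes in 25 length bins, and members of up to 2804 bases lie mostly above 0.

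Among the box C/D snoRNP proteins, which guide ribose methylation of ribosomal RNA, Nop56 was the only one of 3 called. Nop58, its partner in the core particle, had 53.8, 58.1 and 60.7 CPM in myeloma libraries and 52.3, 65.5 and 55.4 CPM in control libraries. The groups overlapped and the log2 fold change was -0.0044 (SE 0.11, adjusted p = 0.983), with a sign that turned under 5 of 17 other settings. Fbl, the methyltransferase fibrillarin, averaged 68.2 ± 4.96 CPM in myeloma and 67.7 ± 7.24 CPM in control libraries (SD, n = 3 each; log2 fold change 0.01, adjusted p = 0.962 by edgeR), and its sign also turned under 6 settings. The 8 further genes of this list, which cover the fourth core protein Snu13 and assembly factors, gave no call in either direction.

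The box H/ACA snoRNPs convert uridine to pseudouridine. Nhp2, a core protein, had 23.1, 26.3 and 31.5 CPM in myeloma libraries and 19.0, 20.0 and 18.5 CPM in control libraries. The groups did not overlap, and at a log2 fold change of 0.49, the largest of the 30, it still missed the threshold (SE 0.14, adjusted p = 0.0594). Gar1, another core protein, averaged 19.2 ± 1.09 CPM in myeloma and 14.8 ± 1.49 CPM in control libraries (SD, n = 3 each; log2 fold change 0.37, adjusted p = 0.139 by edgeR). Dkc1, the pseudouridine synthase dyskerin, had 34.7, 31.7 and 34.1 CPM in myeloma libraries, against 33.9, 37.0 and 37.7 CPM in control libraries. The groups overlapped (log2 fold change -0.11, SE 0.10, adjusted p = 0.510). None of the 3 members and none of the 3 other genes of the list was called.

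Members of the small-subunit processing machinery stood on both sides of 0. Utp20, a very large scaffold protein of the processome, had 33.3, 32.3 and 25.3 CPM in myeloma libraries and 35.0, 40.0 and 37.5 CPM in control libraries. Although every myeloma library was lower, it did not pass (log2 fold change -0.31, SE 0.13, adjusted p = 0.155). Rrp9, a protein of the U3 snoRNP, had 26.7, 27.0 and 25.5 CPM in myeloma libraries, against 25.7, 25.4 and 26.9 CPM in control libraries. The groups overlapped, and the log2 fold change was the smallest of this role (0.02, SE 0.11, adjusted p = 0.917). Wdr43 had a log2 fold change of 0.19, Nop14 of -0.14 and Heatr1 of -0.10, all processome components, and none passed although the groups did not overlap for Wdr43 and Nop14. Rrp12, known from yeast for export of ribosomal subunits, had the widest spread of the group, with 13.0, 9.4 and 18.8 CPM in myeloma and 11.9, 11.8 and 14.7 CPM in control libraries.

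Of the 9 large-subunit factors 8 had a log2 fold change above 0 and none was called. The 53 other tested genes listed under large-subunit processing did not share this direction, with 22 above 0 and a median of -0.08. Over all 13235 genes tested 6876 were above 0. Nop16 had 16.4, 18.9 and 16.3 CPM in myeloma libraries and 10.4, 13.1 and 13.7 CPM in control libraries. Its groups did not overlap (log2 fold change 0.47, SE 0.17, adjusted p = 0.112). The assembly factor Mrto4 was likewise separated, at 22.5 ± 1.28 CPM in myeloma and 16.4 ± 1.88 CPM in control libraries (SD, n = 3 each; log2 fold change 0.45, adjusted p = 0.0747 by edgeR), as was Nop2, a ribosomal RNA methyltransferase, at a log2 fold change of 0.26 (adjusted p = 0.122). Rrs1 (0.35) and Nip7 (0.27) overlapped between the groups. Pes1, Bop1 and Wdr12, which form the PeBoW complex of large-subunit maturation, had log2 fold changes of 0.10, 0.08 and -0.25. Ddx21, an RNA helicase of the nucleolus, had 164.4, 168.6 and 188.9 CPM in myeloma libraries, against 154.6, 184.4 and 166.5 CPM in control libraries, and differed least of the 9 (0.05, SE 0.10, adjusted p = 0.799).

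The catalytic core of RNA polymerase I did not pass. Polr1a, its largest subunit, had 49.8, 48.0 and 57.7 CPM in myeloma libraries and 57.4, 53.9 and 61.8 CPM in control libraries. The groups overlapped (log2 fold change -0.15, SE 0.10, adjusted p = 0.369). Polr1b, the subunit with which it forms the active centre, had 18.8, 29.8 and 25.4 CPM in myeloma libraries, against 29.7, 27.6 and 29.0 CPM in control libraries. MM3 was the lowest of the 6, and the groups overlapped (-0.22, SE 0.16, adjusted p = 0.418).

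Among the 5 genes of nucleolar phosphoproteins and regulators none was called. Ncl, the RNA-binding protein nucleolin, had 459.3, 461.7 and 468.2 CPM in myeloma libraries and 527.6, 535.9 and 485.9 CPM in control libraries. The groups did not overlap, and the log2 fold change was -0.16 (SE 0.08, adjusted p = 0.244). Npm1, the nucleolar chaperone nucleophosmin, had 422.3, 462.2 and 392.6 CPM in myeloma libraries, against 373.2, 415.1 and 340.5 CPM in control libraries, with groups that overlapped (0.18, SE 0.10, adjusted p = 0.299). Gnl3, the GTP-binding protein nucleostemin, had 26.0, 32.3 and 26.5 CPM in myeloma libraries and 22.9, 22.8 and 20.0 CPM in control libraries. It was separated without passing (0.37, SE 0.13, adjusted p = 0.112). Mybbp1a, a nucleolar protein that binds the MYB transcription factor, stood at 105.5, 92.4 and 128.9 CPM in myeloma libraries, against 106.2, 112.4 and 110.3 CPM in control libraries. Its log2 fold change was -0.01 (SE 0.12, adjusted p = 0.972), and of the myeloma libraries only MM5 lay above the control libraries. Nolc1, a snoRNP chaperone, had a log2 fold change of -0.20 (adjusted p = 0.288).

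**Figure D4:**
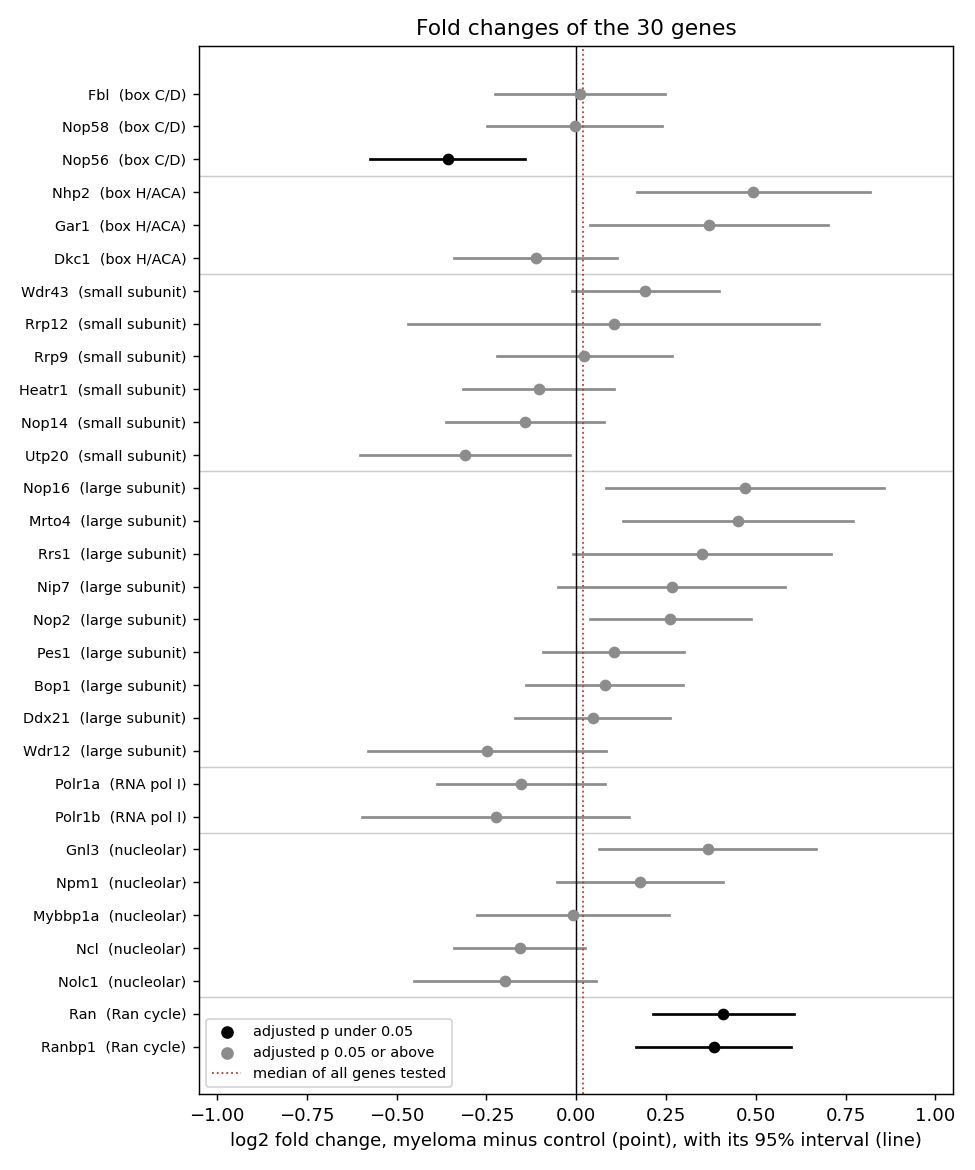
Log2 fold change, myeloma minus control, of each gene by role (points), with its 95% interval from the edgeR fit (lines) and the median of all genes tested (dotted line). Black marks the 3 genes with an adjusted p under 0.05, and all intervals lie between -0.60 and 0.86.

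Levels per length, as the TPM values in the deposited tables, spread widely over the group. Npm1 was the most abundant, at a mean of 471 ± 52.8 TPM in myeloma and 490 ± 19.2 TPM in control libraries (SD, n = 3 each). Ncl followed, at 191 ± 14.2 TPM in myeloma and 257 ± 22.0 TPM in control libraries. Ran and Nop56 came next, with 141 ± 36.2 and 137 ± 18.0 TPM in myeloma libraries, which do not differ beyond their spread, and 125 ± 18.3 and 207 ± 21.2 TPM in control libraries. The lowest were Utp20, at 4.55 ± 0.89 TPM in myeloma and 6.65 ± 0.29 TPM in control libraries, and Rrp12, at 4.25 ± 1.27 TPM in myeloma and 4.77 ± 0.84 TPM in control libraries. On the TPM scale 21 of the 30 genes had a lower mean in myeloma. The median log2 ratio of mean TPM was -0.19 for the group and -0.23 for all tested genes, and 17 members lay above and 13 below that median of all genes. The effective length that RSEM gave Ran moved with the estimated mixture of its transcripts, at 1376.9, 1982.0 and 2169.0 bases in myeloma libraries and 1534.3, 1958.2 and 1945.8 bases in control libraries.

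Beyond the 30 genes, 151 other genes of the same steps were tested, from lists of snoRNP, processing, RNA polymerase I, nucleolar, Ran cycle and snoRNA host genes. Of these 8 were higher and 2 lower, 6.62% against 11.0% of all genes, with a median log2 fold change of -0.01. Polr1d, with the lowest adjusted p of the 10, and Polr1c are subunits that RNA polymerase I shares with RNA polymerase III. Polr1d had 119.9, 128.5 and 113.6 CPM in myeloma libraries and 84.1, 91.3 and 82.0 CPM in control libraries (log2 fold change 0.49, SE 0.09, adjusted p = 0.00978). Polr1c had 41.1, 38.9 and 39.5 CPM in myeloma libraries, against 26.3, 27.6 and 30.2 CPM in control libraries (0.51, SE 0.10, adjusted p = 0.0174). The groups were separated for both. Polr1d passed whichever library was left out, and Polr1c did not with MM3 (0.0669), MM4 (0.0547) or CT3 (0.0779) left out. Neither passed with the length and GC correction (0.100 and 0.166), nor Polr1c with the effective-length offset (0.175). The other 12 genes of the RNA polymerase I list were not called.

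Of the 44 other genes listed here under small-subunit processing 2 rose and none fell. These were Dcaf13 (log2 fold change 0.36, adjusted p = 0.0372) and Fcf1 (0.43, adjusted p = 0.0469), both processome proteins. Dcaf13 did not pass whichever library was left out (0.0595 to 0.124), with library sizes alone (0.0821), with no low-count filter (0.0654) or with the effective-length offset (0.0732). Fcf1 passed with MM5 left out but in none of the 5 other fits that left out 1 library (0.0863 to 0.149), nor with upper-quartile factors (0.0542), library sizes alone (0.0958), limma-voom (0.0589), the effective-length offset (0.0749) or the length and GC correction (0.517).

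Of the 53 other genes listed here under large-subunit processing 2 rose and 1 fell. Nol7, a nucleolar protein, averaged 85.0 ± 9.57 CPM in myeloma and 59.0 ± 6.60 CPM in control libraries (SD, n = 3 each; log2 fold change 0.52, adjusted p = 0.0234 by edgeR). Ebna1bp2 had 0.35 (adjusted p = 0.0491), a call that every one of the 17 other settings lost. Mdn1, the giant ATPase midasin that remodels large-subunit precursors, fell, at 145.5, 136.6 and 125.8 CPM in myeloma libraries and 174.2, 205.8 and 216.3 CPM in control libraries (-0.55, SE 0.10, adjusted p = 0.0130). For Mdn1 the call went with MM4 (0.0570) or CT3 (0.0606) left out, under the effective-length offset (0.229) and under the length and GC correction (0.131). For Nol7 it went with MM3 (0.0835), MM4 (0.0894), CT1 (0.0694) or CT3 (0.105) left out and under the length and GC correction (0.184).

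Around Ran, 1 of 9 other genes of the transport cycle was called. Kpna2, a nuclear import adaptor, averaged 52.9 ± 8.07 CPM in myeloma and 33.6 ± 5.83 CPM in control libraries (SD, n = 3 each; log2 fold change 0.65, adjusted p = 0.0286 by edgeR). It passed with CT5 left out but in none of the other 5 fits that left out 1 library (0.0569 to 0.111), nor with the effective-length offset (0.0627) or the length and GC correction (0.126). Rcc1, Rangap1, Xpo1 and the other genes of this list were not called, and the median of the 9 was -0.03.

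Protein genes of the finished ribosome were read beside the group for comparison. Of 80 cytosolic ribosomal protein genes 5 rose and none fell (6.25%, against 11.0% of all genes tested). Their median log2 fold change was 0.26, and 77 were above 0. Of 79 mitochondrial ribosomal protein genes 16 rose and none fell (20.3%), with a median of 0.32 and 75 above 0. Both medians are above the 0.06 of the biogenesis genes, and this difference was not tested. Transcript length was not matched in this comparison. The 15 shorter biogenesis genes had a median of 0.35, and all tested genes of at most the members' median length had 0.17. Cytosolic ribosomal protein genes have many processed copies, so their counts are uncertain.

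Markers of other cells moved between the same libraries. In bulk RNA, fewer cells of a type and less RNA per cell cannot be told apart. Foxp3 itself averaged 1020 ± 42.0 CPM in myeloma and 1134 ± 130 CPM in control libraries (SD, n = 3 each). The 8 regulatory T cell markers, with Foxp3, summed to 5171 to 5413 CPM in myeloma and 4510 to 5984 CPM in control libraries. Tnfrsf18 (449 to 537 against 276 to 351 CPM) and Cd3g (439 to 500 against 332 to 389 CPM) were higher in every myeloma library. Il2ra was lower in every myeloma library (337 to 373 against 389 to 464 CPM), and the other markers of this list overlapped. The summed level of 10 plasma cell markers was 338 to 611 CPM in myeloma and 211 to 276 CPM in control libraries. Prdm1, Xbp1, Irf4 and Tnfrsf13b, each at 38.1 CPM or more in every library, made up much of that sum. Only Jchain, Prdm1 and Tnfrsf17 separated the groups one by one, and the other markers of the list overlapped. Tnfrsf17 was at 0 in all 3 control libraries and 0.423, 0.695 and 0.714 CPM in the myeloma libraries. In MM3, Sdc1 (1.1 CPM), Mzb1 (0.762 CPM) and Derl3 (0.508 CPM) lay within the control range. The sum of 8 erythroid markers, mostly haemoglobin, was 3864 to 4796 CPM in myeloma and 6744 to 14775 CPM in control libraries. The 8 B cell markers summed to 27.3 to 68.2 CPM in myeloma and 44.1 to 284 CPM in control libraries, and 12 neutrophil and monocyte markers to 156 to 604 CPM in myeloma and 88.2 to 233 CPM in control libraries. NK cell markers were at or near 0, at 2.37 to 4.91 CPM over 6 genes in myeloma and 3.26 to 3.99 CPM in control libraries, and 2 CD8 T cell markers summed to 13.5 to 22.4 CPM in myeloma and 11.0 to 13.8 CPM in control libraries. Plasma and erythroid sums separated the groups, and their part in the levels of the biogenesis genes was not tested.

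Cell division genes did not separate the groups. The sum of 18 S-phase genes was 708, 741 and 999 CPM in MM3, MM4 and MM5 and 736, 791 and 791 CPM in CT1, CT3 and CT5. That of 18 genes of the G2/M phase was 182, 210 and 522 CPM in myeloma libraries, against 237, 371 and 386 CPM in control libraries. None of the 36 was called. MM5 had the highest sum of both lists, and the part of cell division in the levels of the biogenesis genes was not tested.

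Read assignment limits a few of these values. Expected counts were fractional in all 6 libraries for Fbl, Npm1 and Ran, and in some libraries for Nop56, Pes1, Mrto4, Wdr12 and Rrs1. RSEM thus did not assign each of their reads to a single gene, and which genes shared them was not examined. The other 22 members had counts within 0.005 of a whole number in every library. Ranbp1 exons share 281 of 1666 bases with the annotated gene Gm49776 on the same strand. Exons of 14 members overlap a gene on the opposite strand, by at most 5.28% of their exonic bases (Nop14), and reads of a kit that does not mark strand cannot be told apart there.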

How the data were processed

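RNA was extracted from sorted CD4+ FOXP3-GFP+ marrow cells with an RNeasy Micro kit, and libraries were made with a NEBNext Ultra kit, per the labels' protocols. Tools listed in the submitters' processing notes are STAR, RSEM, Picard and DESeq2, with build mm10. Their versions and options are not stated there. Each deposited table is an RSEM gene table of 47643 genes, and replicates were not pooled. The expected counts are the authors' RSEM estimates of reads per gene, not normalized, per the file headers. TPM and FPKM in the deposited tables were scaled by the authors' RSEM run for length and library total, per the file headers. TPM served to compare levels between genes and, as ratios of group means, between the groups, and FPKM was not used. The authors' transcript lengths and effective lengths come from the same deposited tables.

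Members were matched by name, which the tables write in capitals, and by Ensembl ID, for which 47224 IDs had a reference name and 419 did not. Gene positions, counted from 1, were taken from GENCODE M21 (GRCm38, which is mm10). Total expected counts were 10240620 to 12008165 in myeloma and 11688282 to 13314631 in control libraries. Expected counts were rounded, filtered with filterByExpr (minimum count 10, minimum total 15), normalized with TMM factors, and compared between the groups by edgeR's quasi-likelihood test (glmQLFit, glmQLFTest; edgeR 4.0.16 under R 4.3.3). P-values were adjusted by Benjamini-Hochberg over the 13235 genes tested, with a threshold of 0.05. Every adjusted p-value printed is from edgeR where no tool is given. SEs were derived from the log2 fold change and the F statistic, and 95% intervals use the fit's degrees of freedom. CPM was computed on library sizes multiplied by the TMM factors, and edgeR's biological coefficient of variation was 0.202.

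The members, the lists and the rule for naming genes were chosen with earlier results of these data known. All members are named, and so are up to 4 called genes per direction of each other list. Values per library are given for called members and for those with the largest and smallest change in each role. Ncl, Npm1 and Rrp12 were added outside this rule. The alternatives were other scalings (RLE, upper-quartile, none beyond library size), other filters (none, or 1 CPM or more in 3 libraries), DESeq2 1.42.0, limma-voom 3.58.1, a replicate block, an effective-length offset, removal of immunoglobulin, haemoglobin and mitochondrial genes, and leaving out each library. Offsets from splines of transcript length and of GC (4 degrees of freedom each) were an alternative chosen after seeing the data. Length and GC content were known for 99.7% of tested genes. Per the design text, each group is 3 mouse marrows, 1 library each, and p-values reflect how far these libraries vary.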

Additional observations from a re-analysis of the deposited data

How the results depend on the processing

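Under RLE, the 1 CPM filter and the removal of immunoglobulin, haemoglobin and mitochondrial genes, every count stayed within 1.5 times the values reported. Of the 30 genes, 18 kept their sign under all 17 alternatives and 27 passed under none. With library sizes alone 1 member was higher, the members' median was -0.0106, 5 other pathway genes were higher and 4 lower, and 1004 of all genes were lower (633 higher), while Fbl (-0.0634), Rrp9 (-0.0507) and Ddx21 (-0.0267) turned sign. With upper-quartile factors 4 other pathway genes were lower and Fbl was at -0.0107. With no filter 5 other pathway genes were lower, 1337 of all genes higher and 1102 lower, and Fbl was at -0.0076. With DESeq2 13 other pathway genes were higher and 4 lower, and 964 of all genes lower. With limma-voom 1 other pathway gene was lower and Nop58 was at 0.0027. With the effective-length offset 0 members were higher and 0 lower, 4 other pathway genes higher and 0 lower, and 372 of all genes lower. Nop58 (0.0117), Nop14 (0.0298), Pes1 (-0.29), Rrp9 (-0.13), Mybbp1a (0.25) and Myc (0.0239) turned sign there. With the length and GC correction 0 members were higher and 0 lower, 1 other pathway gene higher, and 453 of all genes higher and 299 lower. Npm1 (-0.0404), Fbl (-0.0798), Nop58 (0.17), Bop1 (-0.0443), Rrp9 (-0.25), Polr1a (0.0363), Mybbp1a (0.0628) and Heatr1 (0.0197) turned sign. The cause was not tested.

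The labels do not say that replicate numbers pair libraries. Deviations from the group means correlated at 0.03 for the libraries numbered 3 and at 0.10 for those numbered 5. The latter was the highest correlation between a myeloma and a control library, and all others ran from -0.08 to 0.05. So few libraries cannot decide pairing by such correlations, and the numbers were not taken as pairs. Only the numbers 3 and 5 occur in both groups, so MM4 and CT1 add nothing to the contrast in a block fit. A call lost there may reflect fewer usable libraries. With the replicate block 0 members were higher and 0 lower, 1 other pathway gene higher, and 362 of all genes higher and 142 lower. In that block fit adjusted p was 0.167 for Ran, 0.154 for Ranbp1 and 0.175 for Nop56 by edgeR, and Rrp9 (-0.002), Mybbp1a (0.0669) and Myc (0.11) turned sign. The calls of Polr1d (0.0924), Polr1c (0.133), Nol7 (0.188), Kpna2 (0.0557), Zfas1 (0.128) and Mxd1 (0.0533) were lost there by edgeR. So were those of Fcf1 (0.213), Dcaf13 (0.167) and Ebna1bp2 (0.215), while Mdn1 (0.0478), Snhg8 (0.0444) and Mga (0.043) still passed.

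Leaving out 1 library at a time gave 0 to 1 members higher, 0 to 1 lower and a median of 0.0081 to 0.0966. Other pathway genes numbered 1 to 9 higher and 0 to 2 lower, and all genes 331 to 836 higher and 123 to 546 lower. Signs turned for Fbl (-0.0864 to 0.0554), Nop58 (-0.0809 to 0.0923), Rrp12 (-0.19 to 0.31), Ddx21 (-0.0237 to 0.11), Mybbp1a (-0.15 to 0.0949) and Myc (-0.24 to 0.0809). The SE of the members' log2 fold changes had a median of 0.106 with 3 libraries a group.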

Other observations

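Genes that neighbour the pathway were read with the same test. Myc itself had 71.0, 69.5 and 80.8 CPM in myeloma libraries and 84.1, 88.6 and 55.2 CPM in control libraries (edgeR log2 fold change -0.04, SE 0.16, adjusted p = 0.902). CT5 was the lowest of the 6 libraries and the groups overlapped. Of 10 tested genes of the MYC and MAX network 1 rose and 1 fell. Mxd1, a MAX partner known to oppose MYC, had 238.3, 228.2 and 265.9 CPM in myeloma libraries, against 128.5, 137.0 and 192.2 CPM in control libraries (0.68, SE 0.15, adjusted p = 0.0225 by edgeR). Mxd1 did not pass with MM3 (0.0654), MM4 (0.0647), CT1 (0.0578) or CT3 (0.0991) left out. Mga, a very large MAX partner and repressor, fell, at 134.8, 136.4 and 125.2 CPM in myeloma libraries and 182.1, 200.7 and 191.4 CPM in control libraries (-0.53, SE 0.08, adjusted p = 0.00555 by edgeR). Mga passed whichever library was left out and had 0.0544 with the length and GC correction.

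Transcripts that host snoRNAs in their introns went both ways, with 1 of 13 tested higher and 1 lower and a median log2 fold change of -0.13. Zfas1 had 58.3, 68.6 and 58.0 CPM in myeloma libraries and 43.6, 45.7 and 41.8 CPM in control libraries (0.50, SE 0.10, adjusted p = 0.0173 by edgeR). Snhg8 fell, at 34.0, 39.3 and 28.3 CPM in myeloma libraries, against 44.3, 56.3 and 45.6 CPM in control libraries (-0.52, SE 0.14, adjusted p = 0.0499 by edgeR). Snhg8 did not pass whichever library was left out (0.0581 to 0.181), with limma-voom (0.0510) or with the effective-length offset (0.150). Zfas1 did not pass with MM4 (0.0618), CT3 (0.0592) or CT5 (0.0680) left out, or with the length and GC correction (0.0670).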
